A study of Mus musculus with 24 samples.

Results

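Chromatin accessibility was compared between a Firre knockout line of mouse embryonic stem cells that carries an inducible Firre transgene and a wild type control line. The knockout Firre line (genotype Firre KO with the Firre inducible transgene, titled as the rescue) and the wild type control (genotype WT) each had 1 library at 0, 30, 60, 90, 120 and 150 min after doxycycline, and libraries were matched by time. These 12 libraries, 6 a line, were chosen by their titles from 23 with counts. The other lines, used for orientation, were the knockout control (Firre KO, 6 libraries) and the wild type Firre line (wild type with the transgene, 5 libraries; its 60 min library was not analysed here). All lines received doxycycline, in medium with LIF and inhibitors of MEK (PD0325901) and GSK3 (CHIR99021) on gelatin. The labels name neither separate cultures nor separate clones of a line, so each p-value rests on the spread among the libraries of a line, and genotype and clone cannot be told apart. The question was how close the accessibility of the rescued line comes to that of wild type cells.

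Firre is a long noncoding RNA transcribed from the X chromosome. It escapes X inactivation, stays in the nucleus, carries a repeated RNA domain that binds the nuclear matrix protein Hnrnpu, and is known for contacts between its own locus and sites on other chromosomes. The gene body holds many open sites, several of them bound by the insulator protein CTCF. In ATAC-seq a transposase cuts open DNA and leaves adapters there, so the count of fragments in a peak follows how often that stretch was open in the cells. Fewer cells with an open site and less opening per cell cannot be told apart in such bulk libraries. Naive mouse embryonic stem cells, held by LIF and the inhibitors, have wide open promoters at pluripotency and housekeeping genes.

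Counts were available for 145143 consensus peaks, and a library's total in peaks was 6993739 to 8321426 in the knockout Firre line and 6691742 to 7851815 in the wild type control. Promoter peaks, those annotated as promoter or within 1000 bp of a transcription start site, took 41.8 ± 0.547% of the counts in the knockout Firre line and 39.0 ± 0.592% in the wild type control (SD, n = 6 each). The libraries of the lines did not overlap in this share, at 40.9 to 42.3% against 38.1 to 39.7% (exact permutation test, two-sided, p = 0.00216, the smallest that 6 against 6 allows; adjusted p = 0.0112 over 31 summaries). Peaks on mitochondrial DNA took 5.27 ± 0.835% against 4.52 ± 0.203% (exact permutation p = 0.0108, adjusted p = 0.0210). The knockout Firre library at 0 min stood highest, at 6.86%. All 10 stem cell markers had a promoter peak, and their summed level was 429 to 509 CPM (counts scaled to the TMM library size) in the knockout Firre line, against 393 to 423 CPM in the wild type control. Of the 13 peaks of these markers, 3 were called higher, where 11.9% of all promoter peaks and 39.0% of those with over 200 counts on average were. Fibroblast markers had a promoter peak for 6 of 10 genes, with none at Col1a2, Col3a1, Lum and Prrx1. Their sum was 50.6 to 56.7 CPM against 50.5 to 57.2 CPM, and 0 of 7 peaks were called. Endoderm and trophoblast markers (6 of 8 genes, none at Sox17 and Cdx2) summed to 91.9 to 104 CPM against 93.4 to 102 CPM, and neural and mesoderm markers (4 of 5, none at Sox1) to 60.8 to 70.8 CPM against 60.8 to 67.9 CPM.

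At the Firre gene the knockout Firre line did not resemble the wild type control. Of 19 tested peaks in Firre (mm10, X chromosome), 18 were lower and all 18 passed the test. In 12 of them the 6 knockout Firre libraries held 0 counts in all, and in 3 more they held 3 counts or fewer. A group floor of 3 counts corresponds to 0.0653 CPM, so these 12 sites were at least 40.0-fold to at least 113-fold lower than in the wild type control. The site with the highest wild type level among them, in intron 8 (chrX:50602462-50603254), held 0 CPM in every knockout Firre library, against a lowest value of 6.74, a median of 7.15 and a highest of 8.79 CPM in the wild type control. The reads have no molecular identifiers, so these bounds allow for counting error alone. The knockout control also held 0 CPM in every library at the intron 8 site. Both knockout lines carry the Firre KO genotype. A stretch absent from the genome gives 0 counts as a closed one does, and the counts cannot tell these apart. The low values therefore do not measure whether the transgene restored accessibility at the endogenous gene.

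Among the lowered sites the Firre promoter held the most counts. The promoter sequence shows what lies under that peak, on the minus strand (chrX:50635272-50635571, RefSeq, GRCm38.p6), with CG pairs in capitals.
Firre: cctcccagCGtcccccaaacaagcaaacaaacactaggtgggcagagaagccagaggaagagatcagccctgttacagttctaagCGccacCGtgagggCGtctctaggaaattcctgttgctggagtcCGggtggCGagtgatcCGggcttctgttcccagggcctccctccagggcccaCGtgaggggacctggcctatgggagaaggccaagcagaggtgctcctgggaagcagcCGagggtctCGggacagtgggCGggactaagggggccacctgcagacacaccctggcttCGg
The window holds 12 CG pairs, a GGGCGG box and a CACGTG box, and neither CCAAT nor TATAAA on either strand. The promoter peak (chrX:50634917-50635918) held a lowest value of 1.74, a median of 2.44 and a highest of 3.30 CPM in the knockout Firre line, against 8.74, 9.27 and 10.9 CPM in the wild type control. No libraries overlapped, and the knockout Firre mean was 26.3% of the wild type mean (log2 fold change -1.93 ± 0.15 SE; edgeR quasi-likelihood test, adjusted p = 5.85e-21). The knockout control averaged 0.892 CPM and the wild type Firre line 14.4 CPM. Both transgenic lines were called higher here than the control of their own genotype. The knockout Firre line was higher by 1.39 ± 0.25 SE on the log2 scale (edgeR adjusted p = 0.000400). The wild type Firre line was higher by 0.64 ± 0.11 SE (edgeR adjusted p = 0.000113). Whether these reads came from the endogenous gene or the transgene was not tested.

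A further pair of sites in the gene also held some signal, each with 26 counts over the 6 knockout Firre libraries. The site at chrX:50614501-50615470 averaged 0.564 ± 0.271 CPM against 6.67 ± 1.13 CPM (SD, n = 6 each), and that at chrX:50611777-50612817 averaged 0.570 ± 0.178 CPM against 6.09 ± 0.908 CPM. Leaving the promoter aside, the lowered peaks summed to 1.22 ± 0.337 CPM in the knockout Firre line and 79.1 ± 6.96 CPM in the wild type control, or 1.54% of the wild type sum (exact permutation p = 0.00216, adjusted p = 0.0112). These peaks were taken because they were lower in this same comparison, so the p does not test the direction of their sum. The knockout control had a sum of 0.540 CPM and the wild type Firre line one of 86.4 CPM. At each of the 6 times the rescued line stood at a small fraction of the wild type sum.

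A single Firre peak went the other way. It lies on exon 18 of 20 (chrX:50569280-50570236) and held 12.7, 21.7, 22.5, 17.9, 15.3 and 15.8 CPM at 0, 30, 60, 90, 120 and 150 min in the knockout Firre line. The wild type control held a lowest value of 1.35, a median of 2.16 and a highest of 2.72 CPM. Every knockout Firre library lay above every wild type library (log2 fold change 3.10 ± 0.30 SE; edgeR adjusted p = 4.05e-05). Of the other lines, the knockout control averaged 7.27 CPM and the wild type Firre line 25.7 CPM. The difference was present before induction, and its change after 0 min did not pass (0.75 ± 0.67 on the log2 scale; edgeR adjusted p = 0.992). Counts by position do not separate the endogenous gene from the transgene, and which copy the exon reads came from was not tested.

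**Figure D1:**
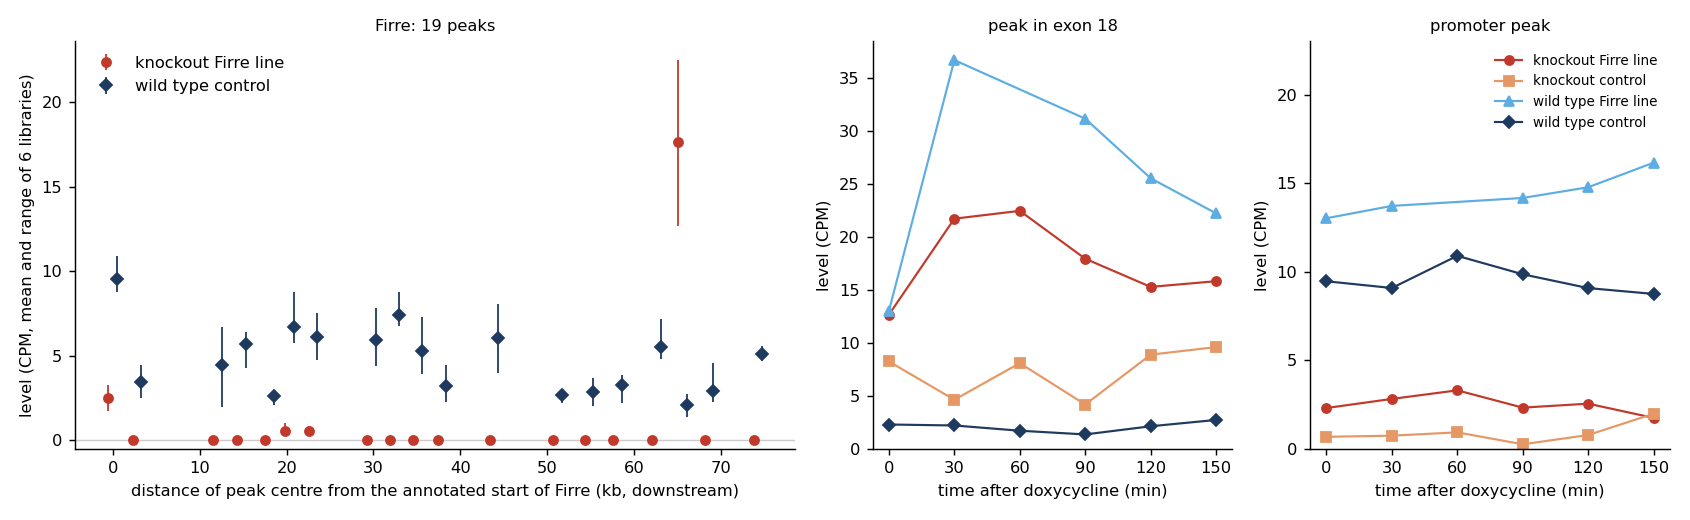
Left, mean CPM and range over 6 libraries of the 19 Firre peaks, against the distance in kb of the peak centre from the annotated start, for the knockout Firre line and the wild type control. Middle and right, CPM of the exon 18 peak and of the promoter peak by minutes after doxycycline in all 4 lines, where the exon 18 peak runs from 12.7 to 22.5 CPM in the knockout Firre line and reaches 2.72 CPM in the wild type control.

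Over all tested peaks, those in Firre included, the median absolute log2 difference between the 2 lines was 0.16. Of 129515 tested peaks, 6345 passed (4.9% of those tested; edgeR quasi-likelihood test with time as a factor, adjusted p of 0.05 or less), 4793 of them higher in the knockout Firre line (3.7%) and 1552 lower (1.2%). The differences were small: peaks called higher had a median log2 fold change of 0.35, with 5 to 95% of them between 0.28 and 0.58, and only 16 of the 4793 passed 2-fold. Peaks called lower had a median of -0.64 (-1.19 to -0.37) at sites of low signal, with a median of 4.16 CPM in the wild type control against 23.1 CPM for those called higher, and 222 of the 1552 passed 2-fold. Libraries of the lines did not overlap at 1740 of the called higher peaks and 404 of the called lower ones. Over all tested peaks 3047 (2.35%) did not overlap.

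The count of calls depended on single libraries and on the model. Of the fits with 1 library left out, that lacking the knockout Firre line at 0 min had 7801 calls and that lacking the wild type control at 90 min had 1972. There were 3038, 3532, 3330 and 3365 calls without the knockout Firre line at 30, 60, 90 and 150 min, and 3602 and 3965 when the wild type control lacked 30 and 150 min. Scaling by total counts turned the balance of directions, with 2342 higher and 3531 lower, so that 39.9% of calls were higher in place of 75.5%. With loess offsets, which remove any trend with abundance, 56.1% of 2243 calls were higher. DESeq2 called 4583 higher and 96 lower. Total counts moved the median over all peaks by -0.09 on the log2 scale. With the promoter share of each library as a covariate, 43 peaks were called, 17 higher and 26 lower, and 40 of these were also called without it. That fit used all 23 libraries, and the share varied within lines, as from 39.1 to 44.3% in the wild type Firre line. Since the promoter shares of the 2 compared lines do not overlap, their difference at an equal share rests on the trend fitted within lines. Of the 43 peaks, 19 lie in Firre.

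A p that misses the threshold does not show that the lines were alike, so each peak's 95% interval was set against a band of 1.5-fold either way. The interval lay inside the band for 82683 peaks (63.8%), crossed an edge for 46747 (36.1%) and lay outside for 85, of which 14 were higher and 71 lower. Among the 42157 peaks with at least 50 counts on average, 40571 (96.2%) lay inside and 5 outside. For promoter peaks, 18027 of 22024 (81.9%) lay inside. In a band of 2-fold, 121534 of all tested peaks (93.8%) lay inside and 26 outside.

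Matched libraries were also compared directly, as the median absolute log2 difference over 29783 well covered peaks after each library was thinned to 5725518 counts. The knockout Firre line stood 0.174 ± 0.0137 from the wild type control (SD over 6 times, 0.164 to 0.199). The knockout control stood 0.189 ± 0.0227 from it (0.160 to 0.229, n = 6), and the wild type Firre line 0.163 ± 0.0233 (0.140 to 0.202, n = 5). These ranges overlap and share the wild type libraries. The knockout Firre line and its own knockout control differed by 0.162 ± 0.00996 (0.153 to 0.181, n = 6). Pairs of libraries within the wild type control differed by 0.140 to 0.158, and pairs within the knockout Firre line by 0.137 to 0.179, so the distances to the wild type control lay above every pair of wild type libraries and overlapped the pairs within the knockout Firre line.

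**Figure D2:**
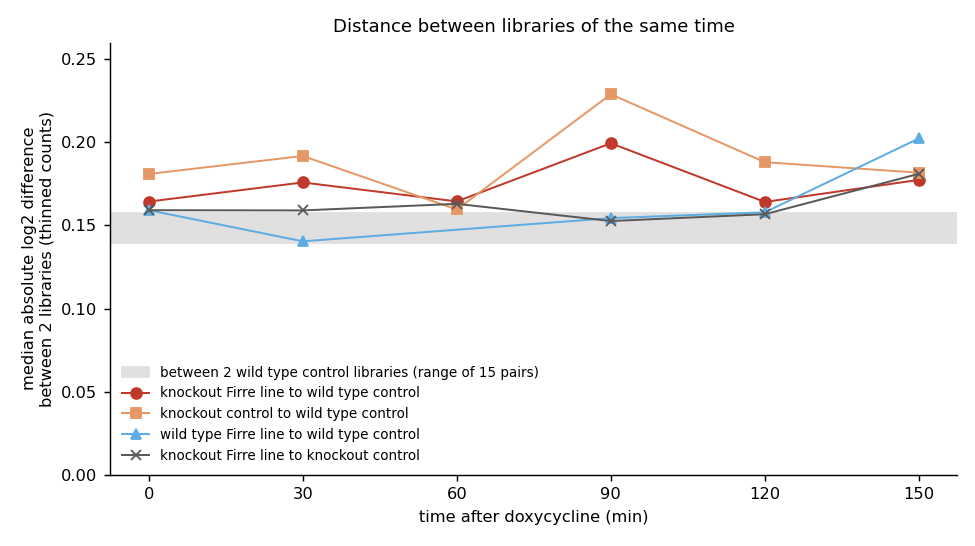
Median absolute log2 difference between 2 libraries of the same time, after thinning, by minutes after doxycycline, with 1 line of points for each pair of cell lines and a grey band for the range of 15 pairs within the wild type control. The knockout Firre line stands 0.164 to 0.199 from the wild type control, above the 0.140 to 0.158 of the band.

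Counted by peaks, against the same wild type libraries, the knockout control had 10324 calls (7.97%), 7128 higher and 3196 lower, and the wild type Firre line had 106 (0.0818%), 79 higher and 27 lower. The knockout Firre line against the knockout control had 1183 calls (0.913%), 737 higher and 446 lower. Against the wild type Firre line it had 1498 calls over 129515 tested peaks, 941 higher and 557 lower. These comparisons share libraries with that of the knockout Firre line and the wild type control, so their counts are only set side by side.

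The peaks whose interval lay wholly outside 1.5-fold show where the rescued line stood farthest from wild type cells. Of the 85, 19 were in Firre. Of the other 66, 13 were higher and 53 lower, 3 were promoter peaks, and 52 were under 3 CPM in both lines. They were sorted by which other lines lay on the knockout Firre side of the midpoint. Among the 13 higher peaks, the wild type Firre line lay there for 7, the knockout control for 2, both for 3 and neither for 1. Among the 53 lower peaks, the knockout control lay there for 29, the wild type Firre line for 5, both for 6 and neither for 13. The loci described next were picked after their values were seen, from those at 3 CPM or more in either line, apart from Kalrn, which was named by rule, and peaks with 0 wild type counts.

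Both transgenic lines were high at introns of Rapgef4, an exchange factor for Rap GTPases that senses cAMP, and of Pde6d, a carrier of prenylated proteins. In intron 1 of Rapgef4 (chr2:71983023-71984048) the knockout Firre line held 5.32, 11.8, 9.01, 16.4, 14.1 and 19.2 CPM from 0 to 150 min, against a lowest value of 2.96, a median of 3.56 and a highest of 4.59 CPM in the wild type control. All 6 knockout Firre libraries were above all wild type libraries, with the 0 min library nearest (log2 fold change 1.78 ± 0.14 SE; edgeR adjusted p = 3.84e-20). Means were 3.83 CPM for the knockout control and 10.8 CPM for the wild type Firre line.

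In the Pde6d intron (chr1:86549363-86551159) the knockout Firre line held 10.5, 16.8, 15.7, 19.5, 21.8 and 18.3 CPM from 0 to 150 min. The wild type control held 11.5, 8.80, 10.4, 8.62, 9.07 and 7.45 CPM at the same times. The lines overlapped at 0 min and not later (log2 fold change over all times 0.88 ± 0.12 SE; edgeR adjusted p = 2.83e-07). The knockout control averaged 8.92 CPM and the wild type Firre line 14.7 CPM. Neither site passed the test of a change after induction over all peaks, at 1.43 ± 0.44 for Rapgef4 (edgeR adjusted p = 0.931) and 1.18 ± 0.29 for Pde6d (edgeR adjusted p = 0.742).

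Smaller sites were also high in the knockout Firre line. An intron of Dpf2, a subunit of the BAF remodelling complex, averaged 5.74 ± 1.1 CPM in the knockout Firre line and 2.92 ± 0.388 CPM in the wild type control (SD, n = 6 each; chr19:5909344-5910085, log2 0.97 ± 0.16 SE, edgeR adjusted p = 2.86e-05). Means there were 3.06 CPM for the knockout control and 4.81 CPM for the wild type Firre line. The last exon of Kalrn, a guanine nucleotide exchange factor (chr16:33971194-33971666), had a lowest value of 0.939, a median of 2.05 and a highest of 2.99 CPM, against 0.394, 0.672 and 1.15 CPM, beside means of 0.861 CPM (knockout control) and 1.91 CPM (wild type Firre line). The rise in Kalrn passed (log2 1.48 ± 0.30 SE, edgeR adjusted p = 0.000846), although its libraries overlap. An intron of Zfhx3, a homeodomain transcription factor (chr8:108491547-108492367), averaged 4.42 ± 0.413 CPM against 2.16 ± 0.317 CPM, and its knockout control mean was 2.86 CPM and its wild type Firre mean 3.28 CPM. Its libraries did not overlap (log2 1.02 ± 0.18 SE, edgeR adjusted p = 7.21e-05), and the wild type Firre line was not called there against the wild type control (edgeR adjusted p = 0.342). The calls at Dpf2, Kalrn and Zfhx3 did not hold under every alternative setting.

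**Figure D3:**
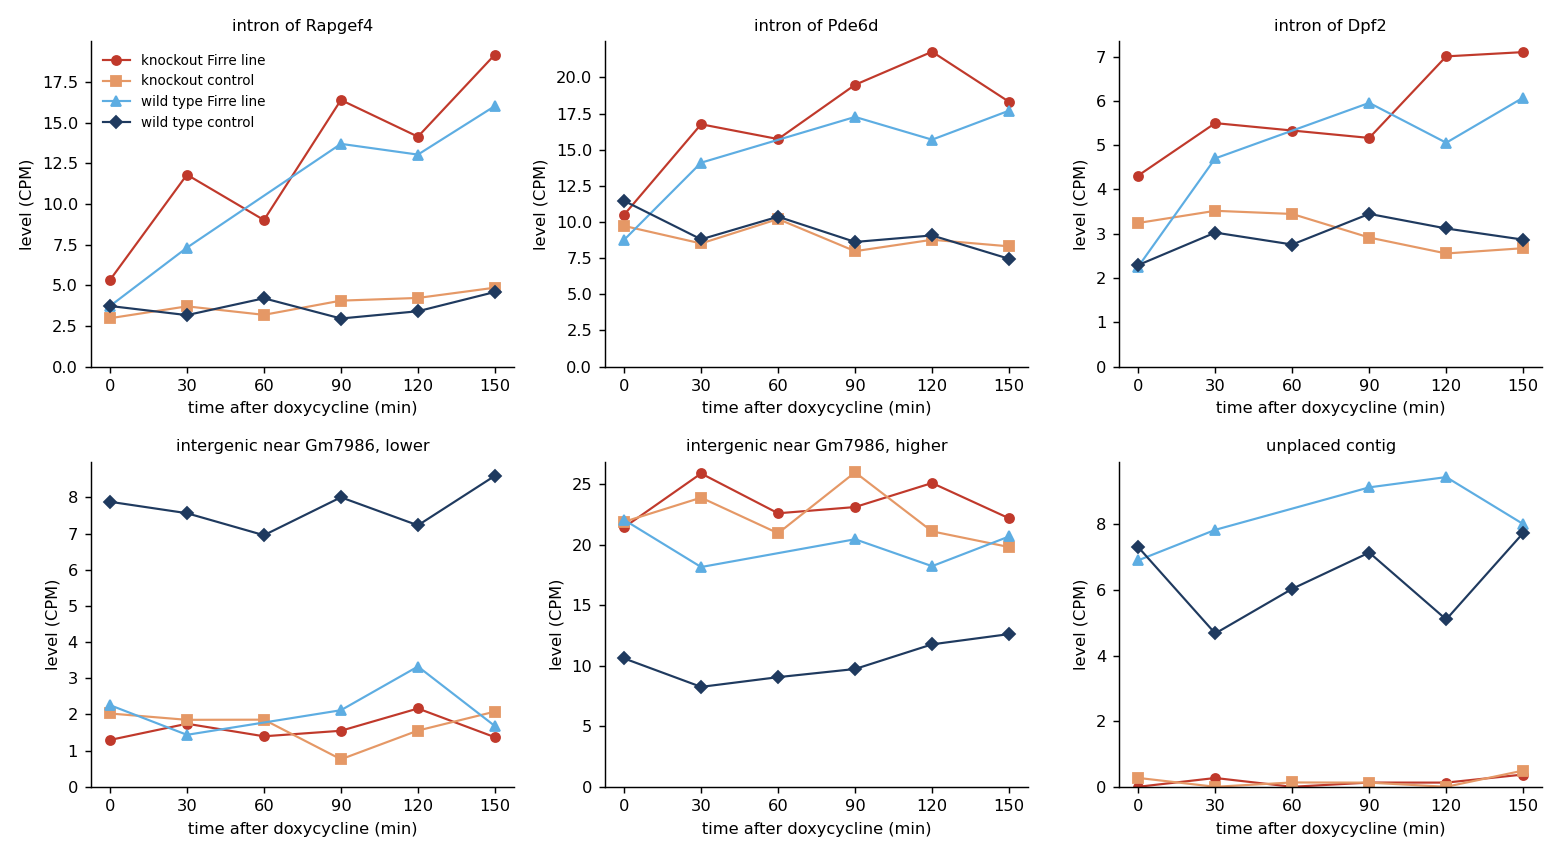
CPM by minutes after doxycycline in all 4 lines at the introns of Rapgef4, Pde6d and Dpf2 and at the peaks near Gm7986 and on the unplaced contig. At Rapgef4 and Pde6d the knockout Firre line is at 5.32 and 10.5 CPM at 0 min and at 19.2 and 18.3 CPM at 150 min, while in the lower panels its distance from the wild type control is present at every time.

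Other sites set the wild type control apart from all 3 other lines. On chromosome 12 an intergenic peak near Gm7986 (chr12:72032723-72033796) averaged 1.59 ± 0.325 CPM in the knockout Firre line, against 7.71 CPM in the wild type control (log2 -2.27 ± 0.17 SE; edgeR adjusted p = 3.35e-21). The knockout control averaged 1.69 CPM there and the wild type Firre line 2.16 CPM. Further along (chr12:72052470-72054878) the order turned, with 23.4 ± 1.74 CPM in the knockout Firre line and 10.3 ± 1.65 CPM in the wild type control (log2 1.18 ± 0.10 SE, edgeR adjusted p = 1.68e-18). There the knockout control averaged 22.3 CPM and the wild type Firre line 19.9 CPM. Between them, the peak at chr12:72047819-72048076 held 0 counts in all wild type control libraries and 61 in the knockout Firre line, at least 19.4-fold over the group floor of 3 counts. A chromosome 10 peak (chr10:28997735-28998078) likewise held 75 counts in the knockout Firre line and 0 in the wild type control, at least 23.7-fold. Further out on chromosome 12 the peak at chr12:72009104-72010052 averaged 7.68 CPM against 6.71 CPM and did not pass (edgeR adjusted p = 0.400).

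Another set separated both knockout lines from both wild type lines. The strongest outside Firre lay at positions 7885 to 8965 of an unplaced contig of the assembly, at a lowest value of 0, a median of 0.128 and a highest of 0.374 CPM in the knockout Firre line, against 4.68, 6.59 and 7.74 CPM in the wild type control (log2 -5.24 ± 0.31 SE; edgeR adjusted p = 8.89e-31). Means were 0.171 CPM for the knockout control and 8.27 CPM for the wild type Firre line. On the X chromosome downstream of Firre, a peak near Gm14620 (chrX:50549907-50550663) averaged 1.38 ± 0.652 CPM in the knockout Firre line and 3.59 ± 0.655 CPM in the wild type control. Means were 1.15 CPM for the knockout control and 3.08 CPM for the wild type Firre line. It was called lower (log2 -1.40 ± 0.22 SE, edgeR adjusted p = 8.03e-06). At both sites the knockout Firre line lay nearer to the knockout control than to the wild type control.

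The remaining loci outside the band were low to moderate in signal. An intron of Fam155a, whose product is an auxiliary subunit of a sodium leak channel (chr8:9507284-9508414), averaged 7.21 ± 1.14 CPM in the knockout Firre line and 3.68 ± 0.751 CPM in the wild type control (log2 0.97 ± 0.14 SE, edgeR adjusted p = 1.65e-06). Among the lower loci, a chromosome 11 peak near Gm23507 averaged 2.26 against 5.37 CPM and an intron of Abi1, an actin regulator, 2.24 against 4.40 CPM. Introns of Gm37168, Glipr1 and Pcsk2, a prohormone convertase, averaged 2.05, 1.94 and 1.74 CPM in the knockout Firre line, against 4.11, 3.92 and 3.57 CPM in the wild type control. All 6 passed the test, with edgeR adjusted p values between 1.97e-07 (Gm23507) and 0.000675 (Pcsk2). In the knockout control these 6 means were 6.11, 2.63, 3.07, 2.59, 2.99 and 2.62 CPM in the same order of loci.

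With TMM library sizes, promoters carried most of the small gains. Of 22024 tested promoter peaks 2624 were called higher (11.9%) and 146 lower (0.663%), while of 107491 other peaks 2169 were called higher (2.02%) and 1406 lower (1.31%). The difference followed signal strength. Promoter peaks with over 200 counts on average had a median log2 fold change of 0.24, and 39.0% of them were called higher. Promoter peaks under 20 counts had a median of -0.14. Other peaks ran alike, at 0.20 over 200 counts and -0.13 under 20. Against the same wild type libraries the medians of promoter peaks over 200 counts were 0.25 in the knockout control and 0.14 in the wild type Firre line. The promoter share of a library moves with this trend, and its part in the gains was not tested.

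**Figure D4:**
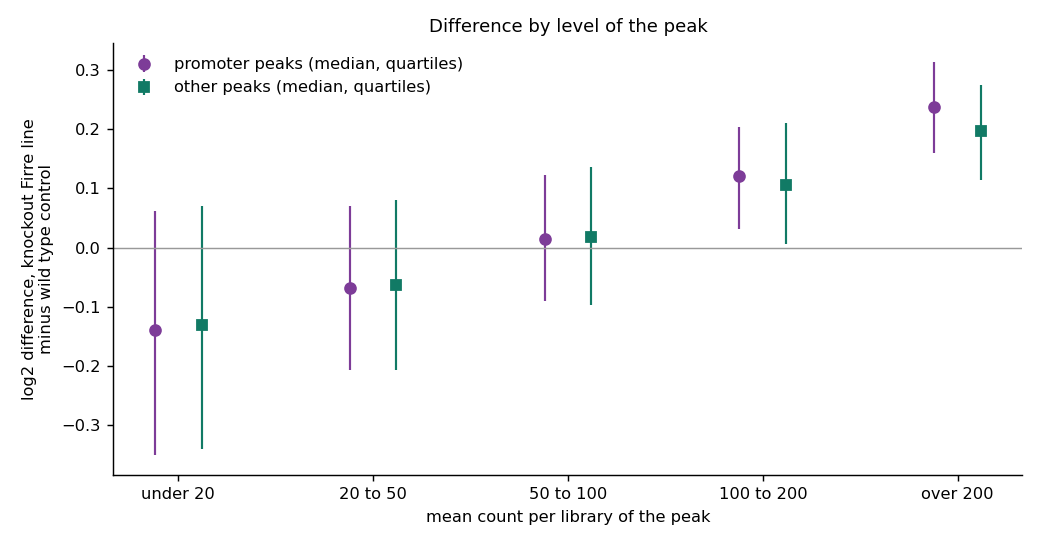
Median log2 difference (knockout Firre line minus wild type control) by mean count of the peak per library, for promoter peaks and other peaks, with bars from the lower to the upper quartile. Promoter medians run from -0.14 under 20 counts to 0.24 over 200 counts.

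The promoter sequences of 6 called peaks are given for their CG content, which is set against the calls over all promoters further on. They are RefSeq windows of GRCm38.p6 from 250 bases before to 50 after the gene's start, with CG pairs in capitals. Mis12 (chr11:71019361-71019660, plus strand), AU022751 (chrX:6083371-6083670, minus strand, the window of the gene RefSeq names Ezhip) and Rab1a (chr11:20201162-20201461, plus strand) were called higher. Hhipl2 (chr1:183418998-183419297, plus strand), Pde6b (chr5:108388123-108388422, plus strand) and Gtsf1 (chr15:103430378-103430677, minus strand) were called lower. Rab1a, Hhipl2, Pde6b and Gtsf1 were picked after their values were seen, as the largest changes with a sequence.
Mis12: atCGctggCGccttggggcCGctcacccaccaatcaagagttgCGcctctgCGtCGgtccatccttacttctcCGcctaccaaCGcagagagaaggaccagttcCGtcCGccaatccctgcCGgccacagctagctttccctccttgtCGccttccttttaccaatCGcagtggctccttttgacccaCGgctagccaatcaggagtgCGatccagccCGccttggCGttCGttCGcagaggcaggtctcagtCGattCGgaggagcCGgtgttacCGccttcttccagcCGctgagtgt
Rab1a: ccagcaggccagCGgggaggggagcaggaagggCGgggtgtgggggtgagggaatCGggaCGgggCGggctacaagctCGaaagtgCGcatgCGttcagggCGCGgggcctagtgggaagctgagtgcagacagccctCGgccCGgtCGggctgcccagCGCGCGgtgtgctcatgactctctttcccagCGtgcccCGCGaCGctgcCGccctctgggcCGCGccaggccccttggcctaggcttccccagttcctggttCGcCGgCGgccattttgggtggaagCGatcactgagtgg
AU022751: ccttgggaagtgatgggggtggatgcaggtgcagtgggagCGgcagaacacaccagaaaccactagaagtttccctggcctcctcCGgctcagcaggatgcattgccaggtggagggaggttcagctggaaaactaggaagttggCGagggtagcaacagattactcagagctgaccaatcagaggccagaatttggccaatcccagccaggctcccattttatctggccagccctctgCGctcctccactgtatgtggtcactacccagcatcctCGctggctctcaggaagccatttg
Hhipl2: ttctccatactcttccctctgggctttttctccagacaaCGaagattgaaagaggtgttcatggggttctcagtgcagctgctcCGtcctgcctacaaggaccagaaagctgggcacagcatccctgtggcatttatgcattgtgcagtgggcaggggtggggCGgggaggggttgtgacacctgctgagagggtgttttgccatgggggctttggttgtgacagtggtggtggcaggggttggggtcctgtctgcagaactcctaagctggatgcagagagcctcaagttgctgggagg
Pde6b: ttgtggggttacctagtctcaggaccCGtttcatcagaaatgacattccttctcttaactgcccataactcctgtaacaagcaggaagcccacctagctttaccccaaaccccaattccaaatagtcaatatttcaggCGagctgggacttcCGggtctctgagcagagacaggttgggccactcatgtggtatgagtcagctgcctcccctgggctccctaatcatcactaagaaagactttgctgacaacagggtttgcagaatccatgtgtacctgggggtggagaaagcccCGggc
Gtsf1: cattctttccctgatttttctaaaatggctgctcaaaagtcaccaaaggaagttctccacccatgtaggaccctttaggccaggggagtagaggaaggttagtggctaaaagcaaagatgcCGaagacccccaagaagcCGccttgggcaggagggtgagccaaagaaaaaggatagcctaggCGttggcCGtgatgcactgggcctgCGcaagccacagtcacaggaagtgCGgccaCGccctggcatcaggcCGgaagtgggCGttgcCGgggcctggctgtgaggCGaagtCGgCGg
Mis12 and Rab1a hold 24 and 27 CG pairs, AU022751 holds 5, and the lowered promoters hold 3 (Hhipl2), 4 (Pde6b) and 13 (Gtsf1).

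Mis12, a kinetochore protein, had the best covered of the promoter gains named by rule. Its peak held a lowest value of 54.8, a median of 65.9 and a highest of 70.1 CPM in the knockout Firre line, against 36.3, 42.5 and 49.0 CPM in the wild type control. No libraries overlapped (log2 0.61 ± 0.09 SE; edgeR adjusted p = 6.05e-07). The knockout control averaged 65.7 CPM and the wild type Firre line 48.1 CPM. Rab1a, a GTPase of transport from the endoplasmic reticulum to the Golgi, averaged 84.0 ± 7.36 CPM against 55.5 ± 2.83 CPM (log2 0.59 ± 0.09 SE, edgeR adjusted p = 2.86e-06). Neither the Mis12 nor the Rab1a call held under every alternative setting. AU022751, an inhibitor of Polycomb repressive complex 2, averaged 4.44 ± 0.775 CPM against 2.78 ± 0.630 CPM and overlapped (log2 0.67 ± 0.17 SE, edgeR adjusted p = 0.00822). Its call was lost without the 150 min knockout Firre library (edgeR adjusted p = 0.0617).

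Other promoters named by size of gain were low in signal. AA684185 on chromosome 18 averaged 2.96 against 1.62 CPM, Churc1 2.71 against 1.57 CPM, and Clk4, a kinase of splicing factors, 3.52 against 2.26 CPM, with log2 fold changes of 0.85, 0.80 and 0.63. The Clk4 peak is a promoter by annotation alone, and its nearest listed start, that of Gm25082, lies 4457 bp away. With 1 library left out at a time, the call was lost in 1 of 12 omissions at AA684185, 6 at Churc1 and 8 at Clk4. The highest edgeR adjusted p was 0.0550 at AA684185 (without the 90 min knockout Firre library), 0.161 at Churc1 (without the 90 min wild type library) and 0.197 at Clk4 (without the 150 min knockout Firre library). Outside promoters Pja1, a ubiquitin ligase, averaged 1.76 against 0.675 CPM, Rab2b, a Golgi GTPase, 1.63 against 0.646 CPM, and Ccdc172 1.52 against 0.679 CPM. The Pja1 peak is intergenic and named for its nearest listed start, at a distance of -79636 bp. The Rab2b call was lost in 1 omission (without the 90 min wild type library, edgeR adjusted p = 0.0667) and the Ccdc172 call in 7, with an edgeR adjusted p of up to 0.0950 (without the 150 min wild type library).

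Among the lowered promoters, Tet1, the dioxygenase that oxidises 5-methylcytosine, had a peak annotated as its promoter (chr10:62814939-62815726). The nearest listed gene start was not that of Tet1 but that of Gm48146, at a distance of -32145 bp. The peak had a lowest value of 1.27, a median of 1.64 and a highest of 2.37 CPM in the knockout Firre line. In the wild type control these were 1.65, 3.56 and 4.59 CPM. The lines overlapped at their edges, and the fall passed (log2 -0.97 ± 0.21 SE; edgeR adjusted p = 0.00191). Means were 2.24 CPM for the knockout control and 2.76 CPM for the wild type Firre line. A promoter peak of Gtf3c1, a subunit of the RNA polymerase III factor TFIIIC, averaged 1.17 ± 0.354 CPM against 2.73 ± 0.899 CPM (log2 -1.21 ± 0.26 SE, edgeR adjusted p = 0.00137). Aurka, the mitotic kinase, averaged 0.968 against 1.90 CPM, Isca1, of iron-sulfur cluster assembly, 0.736 against 1.59 CPM, and Tbc1d21 0.759 against 1.64 CPM. The Isca1 peak is also a promoter by annotation alone, 10354 bp from the listed start. Of 12 omissions of 1 library, 5 ended the call at Aurka, 10 at Isca1 and 4 at Tbc1d21, with edgeR adjusted p values of up to 0.0981 (without the 90 min wild type library), 0.102 (without the 0 min wild type library) and 0.103 (without the 30 min knockout Firre library). A peak at Ldha-ps, a pseudogene whose reads may be split with its parent gene, averaged 0.941 against 2.01 CPM and missed the threshold in 4 omissions (edgeR adjusted p up to 0.0847, without the 30 min wild type library). Hhipl2 averaged 1.74 ± 0.358 CPM against 3.37 ± 0.453 CPM (log2 -0.94 ± 0.21 SE, edgeR adjusted p = 0.00236), and Pde6b, a rod phosphodiesterase subunit, 2.22 ± 0.763 CPM against 4.14 ± 0.596 CPM (log2 -0.91 ± 0.19 SE, edgeR adjusted p = 0.00110). Gtsf1, a piRNA pathway factor of the germline, averaged 1.78 ± 0.525 CPM against 2.94 ± 0.569 CPM, with overlapping libraries (log2 -0.74 ± 0.21 SE, edgeR adjusted p = 0.0247). Its call was lost in 7 of 12 omissions (edgeR adjusted p up to 0.184, without the 90 min wild type library). Outside promoters the named losses averaged under 1 CPM in the knockout Firre line. Echdc1 averaged 0.604 against 1.80 CPM, Ppp1r9a, an actin binding scaffold, 0.575 against 1.68 CPM, and Dnal1, an axonemal dynein light chain, 0.592 against 1.63 CPM. The Echdc1 peak is intergenic, at a distance of -35244 bp from the listed start. Bzw2 averaged 0.613 against 1.66 CPM, Tomm20l 0.566 against 1.53 CPM and Sbspon 0.695 against 1.79 CPM. Without the wild type control at 90 min the edgeR adjusted p was 0.148 at Tomm20l and 0.0578 at Sbspon.

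RefSeq windows were matched to 11140 of 22018 promoter peaks on assembled chromosomes, 2055 of the 2624 called higher and 33 of the 146 called lower. The median count of CG pairs was 23 in windows of peaks called higher, 8 in those called lower and 19 in all. Windows with 0 to 5 CG pairs had a median log2 fold change of 0.02 and 4.41% called higher, those with 6 to 10 had 0.06 and 8.76%, those with 11 to 20 had 0.15 and 19.1%, those with 21 to 30 had 0.18 and 25.4%, and those over 30 had 0.18 and 22.1%. Signal in the wild type control ran along, with a median of 6.56 CPM in the lowest class and 26.2 CPM in the highest. With loess offsets the medians of these classes lay near 0. On either strand GGGCGG was in 77.0% of windows of peaks called higher and 62.9% of all, CCAAT in 55.0% and 37.6%, TATAAA in 4.67% and 6.98%, and CACGTG in 8.66% and 9.69%. A match is a description of the letters in the window.

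Chromosomes 11 and X stood apart from the rest. The median log2 difference of chromosome 11 peaks from the wild type mean, relative to the other autosomes in the same library, was 0.0880 ± 0.0281 in the knockout Firre line (0.0505 to 0.127) and -0.0004 in the wild type control (exact permutation p = 0.00216, adjusted p = 0.0112). For the X chromosome it was 0.147 ± 0.0774 in the knockout Firre line and 0.0023 ± 0.0299 in the wild type control (exact permutation p = 0.00866, adjusted p = 0.0179). The knockout Firre library at 0 min was at 0.00128 on X, within the wild type range, and the highest library was at 0.203. This centring was chosen after the data were seen. With total counts as library sizes the centred difference between the lines was 0.0882 on chromosome 11 (exact permutation p = 0.00216) and 0.144 on X (exact permutation p = 0.00866). Uncentred, total counts gave -0.00227 on chromosome 11 (exact permutation p = 0.913) and 0.0536 on X (exact permutation p = 0.0563), and they moved the median over all tested peaks by -0.09. The knockout control averaged 0.160 ± 0.0281 on chromosome 11 and 0.156 ± 0.107 on X, and the wild type Firre line -0.018 and 0.064.

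On chromosome 11, 885 of 9899 tested peaks (8.94%) were called higher and 22 lower, and on X 173 of 2146 (8.06%) were called higher and 21 lower. Over all tested peaks 3.7% were called higher and 1.2% lower. The gain ran along both chromosomes. All 13 windows of 10 Mb on chromosome 11 and all 14 on X had a positive median, and of 267 windows the 20 with the highest medians were 13 on X and 7 on chromosome 11. The 3 highest were X at 30 to 40 Mb (0.18), 10 to 20 Mb (0.17) and 140 to 150 Mb (0.17). The 3 lowest were chromosome 2 at 50 to 60 Mb (-0.11), chromosome 5 at 150 to 160 Mb (-0.11) and chromosome 2 at 40 to 50 Mb (-0.08). Mis12, Rab1a and Clk4 lie on chromosome 11, and AU022751 and Pja1 on X.

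**Figure D5:**
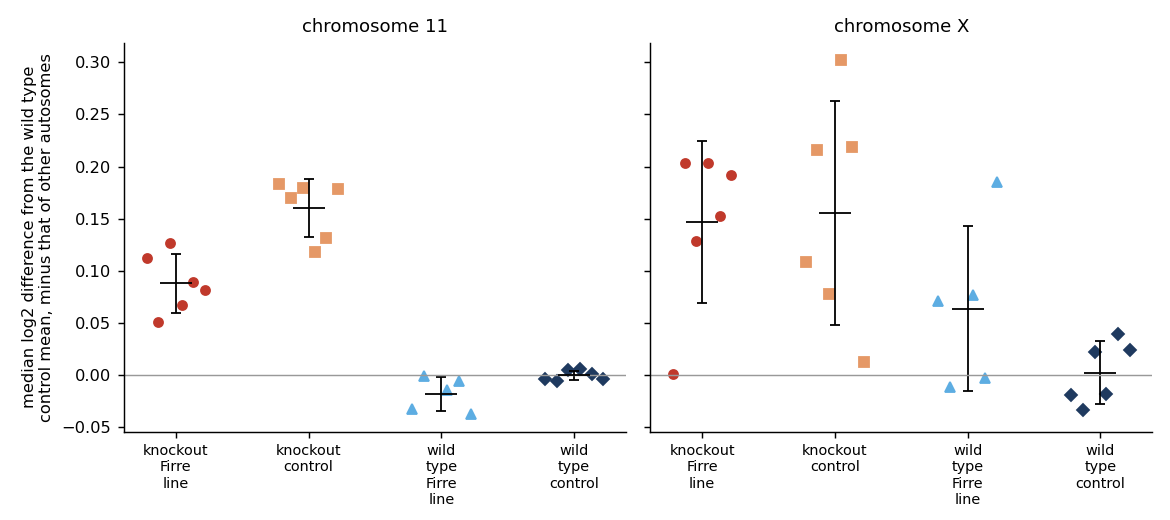
Median log2 difference from the wild type control mean over peaks of chromosome 11 and of X, minus that of the other autosomes, with 1 point a library and the mean and SD of each line. Knockout Firre libraries run from 0.0505 to 0.127 on chromosome 11, above every wild type library, and from 0.00128 to 0.203 on X.

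The promoter peaks of 19 gene lists are described by counts and medians, with no test of a list. The list of 2-cell-like genes had 0 tested promoter peaks and so gives no median. The share called higher over all promoter peaks was 11.9%. Among promoter peaks with over 200 counts on average it was 39.0%, with a median of 0.24. The lists were not matched to other promoters by signal, so a share above 11.9% is not particular to a list. Of 24 peaks of core and naive pluripotency genes 7 were called higher and 0 lower, with a median log2 fold change of 0.20, against 0.09 over all promoter peaks. Esrrb, an orphan nuclear receptor of the naive state, held a lowest value of 32.6, a median of 39.1 and a highest of 47.1 CPM in the knockout Firre line, against 26.7, 30.0 and 33.4 CPM in the wild type control. The lowest knockout Firre library lay under the highest wild type library (log2 0.40 ± 0.09 SE; edgeR adjusted p = 0.00199). Pou5f1, the core pluripotency factor Oct4, had a lowest value of 23.5, a median of 24.6 and a highest of 28.8 CPM against a median of 18.9 and a highest of 21.7 CPM, without overlap (log2 0.38 ± 0.09 SE, edgeR adjusted p = 0.00531; 0.0518 without the 90 min wild type library). Klf2 and Klf5, zinc finger factors of the naive network, were higher by 0.39 and 0.38 on the log2 scale. Nanog was at 28.7 ± 2.52 CPM against 24.0 ± 1.31 CPM (edgeR adjusted p = 0.0549) and Sox2 at 52.6 ± 1.54 against 46.8 ± 3.02 CPM (edgeR adjusted p = 0.230), and neither passed. Of 19 formative and primed genes' peaks 1 was called higher, at Nodal, a TGF-beta ligand, and of 23 germ layer peaks 1, at Gata3. The Nodal and Gata3 calls were each lost in 10 of 12 omissions, with edgeR adjusted p values of up to 0.224 and 0.168, both without the 90 min wild type library.

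In the signalling lists, 5 of 24 peaks of LIF and STAT3 genes were called higher (median 0.15), 3 of 12 of Wnt targets (0.09) and 1 of 14 of ERK targets (0.09). Stat3, the factor that LIF activates, averaged 52.1 ± 3.56 CPM in the knockout Firre line and 37.7 ± 2.47 CPM in the wild type control, without overlap (log2 0.47 ± 0.09 SE; edgeR adjusted p = 0.000237). Axin2, a feedback inhibitor of Wnt signalling, averaged 51.9 against 40.2 CPM (log2 0.37, edgeR adjusted p = 0.00436). Both Stat3 and Axin2 lie on chromosome 11, whose peaks as a whole stood higher in the knockout Firre line. Of immediate early genes 5 of 17 peaks were called higher (median 0.15). They included Egr1 at 73.5 against 57.3 CPM and Fos at 32.9 against 26.2 CPM. Without the wild type control at 90 min both missed the threshold, at edgeR adjusted p values of 0.0612 and 0.101.

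Heat shock genes had the largest share, with 8 of 12 peaks called higher and a median of 0.28. Dnajb1, a co-chaperone of Hsp70, averaged 61.3 ± 6.13 CPM in the knockout Firre line and 44.9 ± 4.13 CPM in the wild type control (log2 0.45 ± 0.09 SE; edgeR adjusted p = 0.000411), and Bag3, another co-chaperone, 27.6 against 20.7 CPM. Hspa1a and Hspa1b, near-identical Hsp70 genes between which reads may be split, were both called, at 0.29 and 0.28. Of p53 list peaks 4 of 14 were called higher (median 0.24), among them Ccng1 at 44.9 against 32.9 CPM and Trp53 itself at 84.0 against 67.6 CPM, both on chromosome 11. Of stress genes 2 of 10 were called, Asns and Sesn2. The Trp53 call was lost in 5 of 12 omissions (edgeR adjusted p up to 0.0632, without the 150 min knockout Firre library). Those at Asns and Sesn2 were lost in 7 and 6 (up to 0.146 and 0.156, both without the 90 min wild type library).

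Of 15 peaks of known Firre partners and architectural proteins 4 were called higher (median 0.23). These were Smc1a and Stag1 of cohesin, Wapl, its release factor, and Cbx1, a heterochromatin protein. Cbx1 lies on chromosome 11 and Smc1a on X. Wapl averaged 21.1 against 16.8 CPM. Each of these 4 calls was lost in 6 to 11 of 12 omissions, with edgeR adjusted p values of up to 0.110 at Smc1a (without the 60 min knockout Firre library), 0.152 at Stag1 (without the 90 min knockout Firre library), 0.163 at Wapl (without the 90 min wild type library) and 0.206 at Cbx1 (without the 60 min knockout Firre library). Of 13 peaks of Firre's neighbours on X 2 were called higher. Enox2 had a lowest value of 15.9, a median of 17.2 and a highest of 20.3 CPM in the knockout Firre line, against 10.8, 11.8 and 13.9 CPM in the wild type control, without overlap (log2 0.55 ± 0.10 SE; edgeR adjusted p = 0.000150). Hprt, of purine salvage, averaged 15.1 against 11.6 CPM, and its edgeR adjusted p was 0.111 without the 90 min wild type library. Of 5 peaks at genes known to contact the Firre locus in the nucleus 0 were called, and of 6 in the X inactivation region 0. These peaks cover 2 of 5 listed contact genes and 5 of 10 listed genes of the X inactivation region. With 11.9% of all promoter peaks called higher, so few peaks cannot set these lists apart.

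Polycomb genes had 8 of 36 peaks called higher and 1 lower (median 0.18). Suz12 and Jarid2 of Polycomb repressive complex 2 averaged 55.6 against 45.1 CPM and 28.3 against 22.3 CPM. The chromobox genes Cbx2 and Cbx8, on chromosome 11, were both called, at 0.28 and 0.38 on the log2 scale. The lowered peak, near a start of Kdm2b, which recruits Polycomb to CpG islands, averaged 1.77 against 2.91 CPM (log2 -0.72, edgeR adjusted p = 0.0414; 0.144 without the 90 min knockout Firre library). DNA methylation genes had 3 of 20 peaks called higher and 1 lower, the Tet1 peak. Imprinted genes had 3 of 22 called higher, Zim1, Ube3a and Impact (the last lost in 9 of 12 omissions, edgeR adjusted p up to 0.116 without the 150 min wild type library), and fibroblast genes 0 of 15 (median 0.04). With the promoter share as a covariate 0 peaks of any list were called, and with loess offsets 10 in place of 56. Loess offsets turned the median of core and naive pluripotency genes to -0.01, that of LIF and STAT3 genes to -0.01, of immediate early genes to -0.05 and of Polycomb genes to -0.02, and left heat shock genes at 0.02 and p53 genes at 0.03. Total counts left these 6 medians positive, from 0.06 to 0.19. Because the covariate fit called no list peak, none of the 42 list peaks examined peak by peak could keep its call under every alternative.

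Induction did not detectably change the gap between the lines. The difference between the lines in the change from 0 min to the mean of 30 to 150 min gave 0 calls over 129515 peaks (0%) with edgeR, with DESeq2 and with limma-voom, and 6694 peaks had an unadjusted p under 0.05. The smallest adjusted p was 0.276, at an intron of Col24a1, a fibrillar collagen (log2 -3.34 ± 0.70 SE, edgeR), and on the higher side the lowest p belonged to an intron of Ubp1, a transcription factor (1.31 ± 0.31, edgeR adjusted p = 0.742). The difference in slope per hour also gave 0 calls (0%) by all 3 tools, with 5287 peaks under an unadjusted p of 0.05. The lowest p values there were those of a Snd1 intron (0.98 ± 0.23 per hour) and Zfp819 (-0.61 ± 0.15 per hour), both at an edgeR adjusted p of 1. The first test rests on 1 library a line at 0 min, and its median SE was 0.45 on the log2 scale, against 0.16 for the difference over all times.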

How the data were processed

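The authors deposited unnormalized read counts of each library in a shared set of peaks, with an annotation of each peak's position, gene and distance in bp to the nearest start site. MACS2 2.2.7.1, featureCounts and the build mm10 are named per the submitters' processing notes. The sources used here do not state the aligner, the treatment of duplicates or a shift for the transposase. Per the labels' protocols, libraries were made by Omni-ATAC, and doxycycline was added the day after seeding, one hour after a medium change.

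Counts were tested with edgeR 4.0.16 in R 4.3.3 (glmQLFit, robust, and glmQLFTest) over all 23 libraries, with line and time as factors (14 residual degrees of freedom). TMM library sizes were used, and filterByExpr with a minimum of 10 counts kept 129515 peaks. The Benjamini-Hochberg adjustment ran over all of these, with calls at an adjusted p of 0.05 or below. Changes after induction used a term for 30 to 150 min within each line, and slopes a linear time within each line. DESeq2 1.42.0 and limma 3.58.1 (voom) were alternatives. The fits were tested on simulated data first. A count of 0 was given a floor of 3 counts. Exact permutation tests of library summaries enumerated all 924 splits of 6 against 6, two-sided. Replicate numbers are the times, so time as a factor is the replicate block.

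Peaks were named by rule: per direction, the 6 promoter and 6 other called peaks with the largest change among those at 1 CPM or more and of the same sign at all 6 times, unnamed gene models passed over, plus all Firre peaks and up to 4 called members a list. The members and lists were chosen with earlier results of these data known. Some peaks that the rule names are not reported here.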

Additional observations from a re-analysis of the deposited data

Results flagged for a closer look

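Within a line of 6 libraries, a single library stood far from the others at 9 of 122 sets of values examined, where chance gives about 5%, or 6.1 sets. In the knockout Firre line the 0 min library was low at Rab1a (69.9 CPM), at Churc1 (2.30 CPM) and at the chromosome 10 peak starting at 28997735 (0.575 CPM). It was high at the unplaced contig peak starting at 26309 (3.31 CPM). In the wild type control the 120 min library was low at Dnal1 (0.425 CPM) and at the Fam155a intron (2.27 CPM) and high at Hhipl2 (4.25 CPM). At 2 Firre peaks a wild type library stood apart, with 4.59 CPM at 60 min at the peak starting at 50566501 and 2.06 CPM at 30 min at that starting at 50617147. At all 9 sites the call of the line difference held with that library left out.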

How the results depend on the processing

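The 6345 calls between the lines stayed within 1.5 times with DESeq2 (4679), limma-voom (6393), size factors (5987), total counts (5873), no filter (6023), a stricter filter (4822) and without the 0 min libraries (5908). Without the replicate block, that is without pairing by time, there were 5777. The count moved to 2243 with loess offsets, 10251 with only the 12 libraries of the 2 lines, 2212 at an adjusted p of 0.01 and 43 once the promoter share was a covariate. With 1 library left out it ran from 1972 to 7801. The tests of change after induction and of slope gave 0 calls under every alternative run. Of the 20 chromosome medians, 10 passed an adjusted p of 0.05, and 18 did with total counts. Uncentred, total counts gave a chromosome 11 difference of -0.00227 and one of 0.0536 on X, having moved the median of all peaks by -0.09; relative to the other autosomes they gave 0.0882 (exact permutation p = 0.00216) and 0.144 (exact permutation p = 0.00866). List peaks called moved to 10 under loess offsets and to 0 when the promoter share was a covariate. Directions turned with loess offsets at Trim28 (-0.0848), Stag1 (-0.0164), Nodal (-0.0642) and Trp53 (-0.0178), and with the covariate at Stag1 (-0.0624), Gata3 (-0.0025), Hspa5 (-0.0350), Socs3 (-0.0223) and Sesn1 (-0.0419); the cause was not tested. Of 64 named peaks outside the lists, 30 kept their call under every alternative that gave them an adjusted p. All 19 Firre peaks were among the 30. Outside Firre, those that kept it included the peaks at Rapgef4, Pde6d and Fam155a and those near Gm14620. No named promoter peak outside Firre kept its call, and neither did the peaks at Dpf2, Zfhx3 and Kalrn. The stricter filter left peaks with few counts untested, and DESeq2 gave no adjusted p for 61 of all 106 named. Depth limits the peaks with few counts, whose intervals are wide; 46747 intervals crossed an edge of the 1.5-fold band.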
